A study of Mus musculus with 2 samples.

Results

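Genes of fatty acid uptake, binding and activation were followed in differentiated C3H10 cells with and without knockdown of the long noncoding RNA MALAT1. They were the 10 rows, of 46095 in the count table, whose symbol is Lpl, Cd36, Fabp4, Fabp5, Slc27a1, Slc27a4, Acsl1, Acsl3, Acsl4 or Acsl5. All 10 were found, and all 10 passed the filter of at least 10 counts summed over both libraries, which 17356 genes passed.

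C3H10 is a mouse line of fibroblast-like precursor cells that can be driven to become adipocytes. The labels give its strain as C57BL/6, which does not match the strain in the name C3H10. The label is reported as given, and the strain of the cells was not tested. At 70% confluence the cells received 100 nM of an antisense oligonucleotide (ASO) for 8 h. The control library (ASO NC) got a negative control ASO, and the knockdown library (ASO MALAT1) got an ASO against MALAT1. The study designed more than 1 such ASO, and the labels do not say which one was used here. Both libraries then went through the same induction with isobutylmethylxanthine, dexamethasone, troglitazone and insulin for 2 days, followed by insulin alone, and the study carried its differentiations to day 6. Troglitazone activates PPARγ, the nuclear receptor that drives adipocyte genes, so the control cells were also under this drug. RNA was depleted of ribosomal RNA before sequencing.

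There was 1 library per group. The values below therefore compare 2 libraries and not 2 conditions, and no replicate check was possible. The only p-values given come from a preset amount of variation and not from these samples. The ASO NC library held 58147539 counts and the ASO MALAT1 library 61653549. Levels are given in CPM, a gene's counts relative to the library total, after TMM scaling, which brings the libraries to a common size by the bulk of their genes. Each log2 ratio is ASO MALAT1 over ASO NC and carries a 95% exact binomial interval that covers counting error only. A gene was called lower or higher when its log2 ratio, computed with a prior count of 0.5, reached -1 or 1, a 2-fold difference. By this rule 6.02% of the genes tested were lower and 3.83% were higher. Among the 8251 genes with a mean of at least 1000 counts, 0.739% were lower and 0.0121% were higher. These were 61 of the 1045 genes called lower and 1 of the 665 called higher. Most calls thus fell on genes with fewer counts. The interval lay below 0 for 4584 and above 0 for 4630 of the 17356 genes tested. Among the 8251 these numbers were 2623 and 3076, so an interval off 0 is common and is no call. The targeted gene itself, Malat1 on chromosome 19, had 170402 counts in ASO NC and 45396 in ASO MALAT1, a log2 ratio of -2.01 that left 24.7% of the control level.

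Fatty acids reach an adipocyte in steps. Lipoprotein lipase, secreted by the adipocyte, splits the triglycerides of circulating lipoproteins, and CD36 and the fatty acid transport proteins (FATP, genes Slc27a1 to Slc27a6) help the released acids across the plasma membrane. Inside the cell, fatty acid binding proteins (FABP) carry them, and long-chain acyl-CoA synthetases (ACSL) couple them to coenzyme A, which traps them for storage as triglyceride or for oxidation. Lpl and Fabp4 are classical genes of the differentiated fat cell.

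Lipoprotein lipase, the most abundant binding protein and the most abundant synthetase were lower by nearly the same factor in the knockdown library. Lpl, Fabp4 and Acsl1 stood at 38.6%, 38.7% and 38.5% of their control levels, and Fabp5, the second binding protein, stood at 42.6%. The measured ratios of the other 6 genes were short of 2-fold: Cd36, Slc27a1, Slc27a4 and Acsl3 were below their control levels, Acsl4 was at 99.5% and Acsl5 at 122%. For Cd36 the counting interval reached past 2-fold. So 4 of the 10 genes were called lower and 0 higher, against 6.02% and 3.83% of all genes tested. The median log2 ratio of the 10 genes was -0.56, while the median of all genes tested was -0.0031 and that of the genes with at least 1000 counts was 0.013. As a sensitivity check only, edgeR's exact test was run with a preset biological coefficient of variation in place of replicates. It called these 4 genes at a preset of 0.1 and called 0 of them at 0.2 or 0.4. The adjusted p-values of the 4 genes lay between 1.16e-08 and 7.08e-07 at 0.1, between 0.0939 and 0.171 at 0.2, and were 1 at 0.4.

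**Figure D1:**
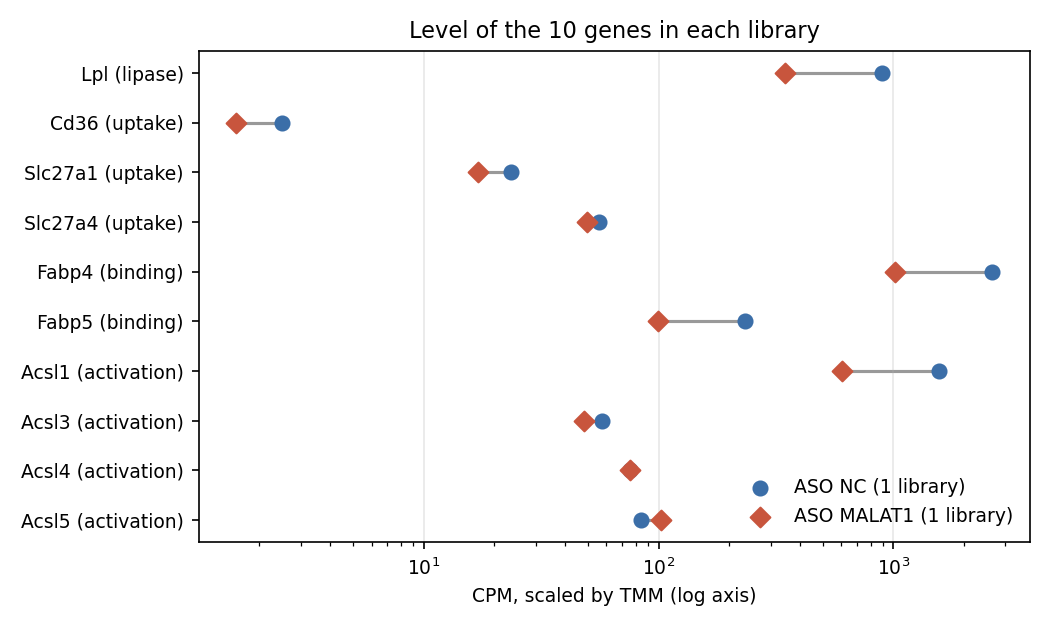
Level of each of the 10 genes as TMM-scaled CPM on a log axis, with 1 circle for the ASO NC library and 1 diamond for the ASO MALAT1 library joined by a line. Fabp4, Acsl1, Lpl and Fabp5 show the long gaps, Acsl4 shows almost none, and Acsl5 is the one gene whose knockdown value lies to the right.

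Lpl encodes lipoprotein lipase. It lies on the plus strand of chromosome 8 from 68880491 to 68907448 (GRCm38, GENCODE M21). It had 51462 counts in ASO NC and 21392 in ASO MALAT1, or 892 and 344 CPM. Its log2 ratio was -1.37 with an interval from -1.40 to -1.35, and only 16 of the 8251 genes with at least 1000 counts had a lower ratio. Genes near Lpl differed less between the libraries than Lpl did, in raw counts before scaling. Csgalnact1 had 1171 in ASO NC and 1483 in ASO MALAT1. Ints10, a subunit of the Integrator complex, had 3923 and 3563 counts, and Atp6v1b2, a subunit of the vacuolar proton pump, had 13045 and 13399.

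The genes that mature, anchor and regulate the lipase did not move together. Of 18 listed genes 14 passed the count filter, 2 were lower and 0 higher, and their median log2 ratio was -0.14. The intervals of 6 lay below 0 and those of 2 above it, against 4584 and 4630 of the 17356 genes tested. Pcsk6 had 895 and 502 counts and a ratio of -0.94, and Apoc1 had 119 and 64 and a ratio of -0.996, both short of a call. Lmf1 and Sel1l, which the lipase needs to fold and leave the endoplasmic reticulum, had ratios of -0.05 in both cases. Lmf2, a relative of Lmf1, had 0.04. Furin, a protease that can cleave the lipase, had 7014 and 8510 counts and a ratio of 0.17. Lrp1, a large endocytic receptor that binds lipoproteins, had 247486 and 283090 counts and a ratio of 0.09.

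The 2 called genes of this group encode apolipoproteins. Apoc3, an inhibitor of lipoprotein lipase, had 70 and 22 counts and a log2 ratio of -1.75. Apoc2, its activator, had 10 and 2 counts and a ratio of -2.18, with an interval from -5.66 to -0.20. Gpihbp1, the protein that holds the lipase on capillary endothelium, had 13 and 9 counts. Angptl4, an inhibitor of the lipase that many fat cells express, had 0 and 1 counts and was looked at because of that value. In the 500 kb on either side of it Rps28 had 10 and 10 counts and Rps18 had 3 and 3, although both encode ribosomal proteins that every cell uses. Hnrnpm, in the same stretch, had 12114 and 14419. The Angptl4 value is therefore not read as absence, and why this stretch holds so few counts was not tested.

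Other lipases of the same family were scarce. Among 6 of them 4 passed the filter, with 1 lower and 0 higher. Pla1a, a phospholipase, was the one with more than 100 counts and had 1190 and 1317. Pnlip, the pancreatic lipase, had 8 and 3 counts, and its interval, from -4.07 to 0.54, spanned 0.

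Cd36, the fatty acid translocase of the membrane, had the lowest level of the 10 genes. It lies on the minus strand of chromosome 5 from 17781690 to 17888801. It had 144 counts in ASO NC and 99 in ASO MALAT1, or 2.50 and 1.59 CPM. The log2 ratio was -0.64 with an interval from -1.03 to -0.27, which reaches past the 2-fold line, so at this depth a 2-fold difference can be neither called nor set aside. In ASO NC there were 357 counts of Lpl for each count of Cd36, and in ASO MALAT1 there were 216. The log2 change of that ratio was -0.73 with an interval from -1.10 to -0.36. When all counts were divided by 10, the interval ran from -1.95 to 0.39 and spanned 0. Dividing counts, here and below, draws no new reads and mainly widens the interval, so it is no independent check. No near-identical copy of the Cd36 coding sequence was found in the annotation. Its neighbour Sema3c, a secreted guidance protein, had 508 and 501 counts. Whether reads of Cd36 were lost in alignment or counting was not tested.

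The FATP genes Slc27a1 and Slc27a4 encode membrane proteins that take up long-chain fatty acids and also have acyl-CoA synthetase activity. Slc27a1 (chromosome 8, 71568882 to 71587302, plus strand) encodes FATP1, the form known from fat and muscle. It had 1358 counts in ASO NC and 1054 in ASO MALAT1, and its log2 ratio was -0.47 with an interval from -0.59 to -0.36. Slc27a4 (chromosome 2, 29802634 to 29817522, plus strand) encodes FATP4. It had 3210 and 3078 counts, and its ratio was -0.17 with an interval from -0.24 to -0.10. Both values were below 0 by more than counting error, and both were short of 2-fold. Of the 8251 genes with a mean of at least 1000 counts, 2623 had an interval below 0. There were 0.423 counts of Slc27a1 for each count of Slc27a4 in ASO NC and 0.342 in ASO MALAT1, a log2 change of -0.31 with an interval from -0.44 to -0.17. When all counts were divided by 10, the interval ran from -0.74 to 0.12 and spanned 0.

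Of the 4 other FATP genes, all passed the filter, 1 was lower and 0 higher. Slc27a6, which encodes FATP6, had 852 and 1143 counts and a log2 ratio of 0.32. Slc27a3 had 632 and 705 counts and a ratio of 0.05. Slc27a2 had 18 and 34. Slc27a5, a form known from liver, was the called one, with 10 counts against 1. Its ratio of -2.91 had an interval from -8.87 to -0.62. Per kilobase of the longest transcript, Slc27a4 made up 43.4% of the FATP family in ASO NC and 41.2% in ASO MALAT1. Slc27a1 went from 23.2% to 17.8% and Slc27a6 from 18.8% to 25.0%. The family sum itself had a log2 ratio of -0.09. The order of the genes depended on the length used, as Slc27a3 passed Slc27a1 when all annotated exons were merged, at 15.8% against 14.9% of the family in ASO NC.

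Genes for proteins of the membrane and caveolae that help uptake were within 2-fold of their control levels. All 12 listed genes were tested, 0 were called in either direction, and their median log2 ratio was 0.01. The intervals of 5 lay below 0 and those of 4 above it, against 4584 and 4630 of the 17356 genes tested. Cavin1, listed as Ptrf, which coats caveolae, had 112804 and 111324 counts and a ratio of -0.13. Cav1, the main caveolar membrane protein, had 15608 and 16778 and a ratio of -0.0023. Got2, an aminotransferase also described as a membrane fatty acid binding protein, had 9421 and 11403 and a ratio of 0.17. The lowest of the 12 was Cavin2, listed as Sdpr, with 12749 and 9190 counts and a ratio of -0.58. Scarb1, a scavenger receptor of the same family as CD36, had 1576 and 1149 and a ratio of -0.56. The highest was Lyn, a kinase of the Src family, with 202 and 293 counts and a ratio of 0.43.

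The binding proteins Fabp4 and Fabp5 are close relatives. Their coding starts are shown because the counts of each depend on how well reads of the pair can be separated. Both are read 5′ to 3′ from the start codon, from the transcripts of GENCODE M21 (GRCm38), and capitals mark the bases that are the same in the alignment of the pair.
Fabp4: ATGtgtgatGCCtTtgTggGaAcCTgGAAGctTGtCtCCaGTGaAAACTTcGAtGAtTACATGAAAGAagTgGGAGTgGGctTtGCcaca
Fabp5: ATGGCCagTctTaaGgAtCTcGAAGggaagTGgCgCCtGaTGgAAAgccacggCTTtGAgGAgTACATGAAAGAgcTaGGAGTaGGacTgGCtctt

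Over the whole coding sequence 254 of 384 aligned bases, or 66.1%, were the same, and the longest run without a difference was 12 bases. Fabp4 and Fabp5 sit in 1 cluster of related genes on chromosome 3. Fabp5 is on the plus strand from 10012548 to 10016607, and Fabp4 on the minus strand from 10204088 to 10208576.

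Fabp4, also called aP2, is the main fatty acid carrier of adipocytes. It had 151625 counts in ASO NC and 63240 in ASO MALAT1, or 2628 and 1018 CPM. Its log2 ratio was -1.37 with an interval from -1.38 to -1.35. Among all genes of each library it ranked 28 by counts in ASO NC and 82 in ASO MALAT1. Fabp5, found in adipocytes, epidermis and macrophages, had 13506 and 6188 counts, or 234 and 99.6 CPM. Its log2 ratio was -1.23 with an interval from -1.28 to -1.19. In ASO NC there were 11.2 counts of Fabp4 for each count of Fabp5, and in ASO MALAT1 there were 10.2. The log2 change of this ratio, -0.14 with an interval from -0.18 to -0.09, was small beside the change of either gene, and with all counts divided by 10 its interval, from -0.28 to 0.0081, spanned 0.

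Fabp5 has near-identical copies elsewhere in the genome. With at least 90% identity over at least 100 coding bases, 5 processed pseudogenes matched it, and 4 of them are rows of the table. One of these, Gm6166, lies at chr9:57483963-57484371 (GRCm38, plus strand). It matched over 407 aligned positions with 7 differing ones. The first 150 bases of the aligned stretch are shown for both because a read from most of it could belong to either. Here the capital marks the 1 differing base.
Fabp5: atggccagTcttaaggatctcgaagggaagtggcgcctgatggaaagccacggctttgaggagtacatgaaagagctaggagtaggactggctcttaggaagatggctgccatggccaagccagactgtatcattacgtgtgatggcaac
Gm6166: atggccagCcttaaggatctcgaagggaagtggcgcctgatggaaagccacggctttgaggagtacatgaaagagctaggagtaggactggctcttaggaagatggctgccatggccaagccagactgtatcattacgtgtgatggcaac

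Gm6166 carried 9130 counts in ASO NC and 3852 in ASO MALAT1, a log2 ratio of -1.35 with an interval from -1.41 to -1.30. A second copy, Gm14328, had 509 and 218 counts, and the other copies in the table, Fabp5l2 and Gm6100, had 0 in both libraries. Whether these counts are transcripts of the pseudogenes or reads of Fabp5 placed on them cannot be told apart from this table. The sum of Fabp5 and its copies was 23145 and 10258 counts, a ratio of -1.28 with an interval from -1.31 to -1.25. With the copies added, the count ratio of Fabp4 to Fabp5 was 6.55 in ASO NC and 6.16 in ASO MALAT1. The direction and the 2-fold call of Fabp5 were the same with and without them. Among the 10 genes no other had such a pseudogene copy.

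The rest of the binding protein family gave few counts. Fabp1, Fabp2, Fabp3, Fabp6 and Fabp7 had 0 in both libraries, where 3 counts would correspond to 0.052 CPM in ASO NC and 0.0483 CPM in ASO MALAT1. Whether reads of these genes were lost in alignment or counting was not tested. Pmp2, the myelin form, whose coding sequence shares 73.0% of aligned bases with Fabp4, had 19 and 34 counts. Fabp9 had 0 and 1, and Fabp12 had 3 and 5. Both lie next to Fabp4 in the cluster on chromosome 3. Of the 12 genes listed, which include carriers of retinoids, 4 were tested, 1 was lower and 0 higher. That gene was Rbp4, the retinol carrier that fat cells secrete, which belongs to the lipocalins and not to the FABP family, with 80 and 17 counts and a log2 ratio of -2.31. Per kilobase of the longest transcript Fabp4 was 89.5% of the FABP family in ASO NC and 88.5% in ASO MALAT1, and Fabp5 was 10.4% and 11.3%. With the counts of the pseudogene copies added to it, Fabp5 was 16.6% and 17.5%, and Fabp4 was 83.3% and 82.4%. The family sum was 2.55-fold lower in ASO MALAT1.

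**Figure D2:**
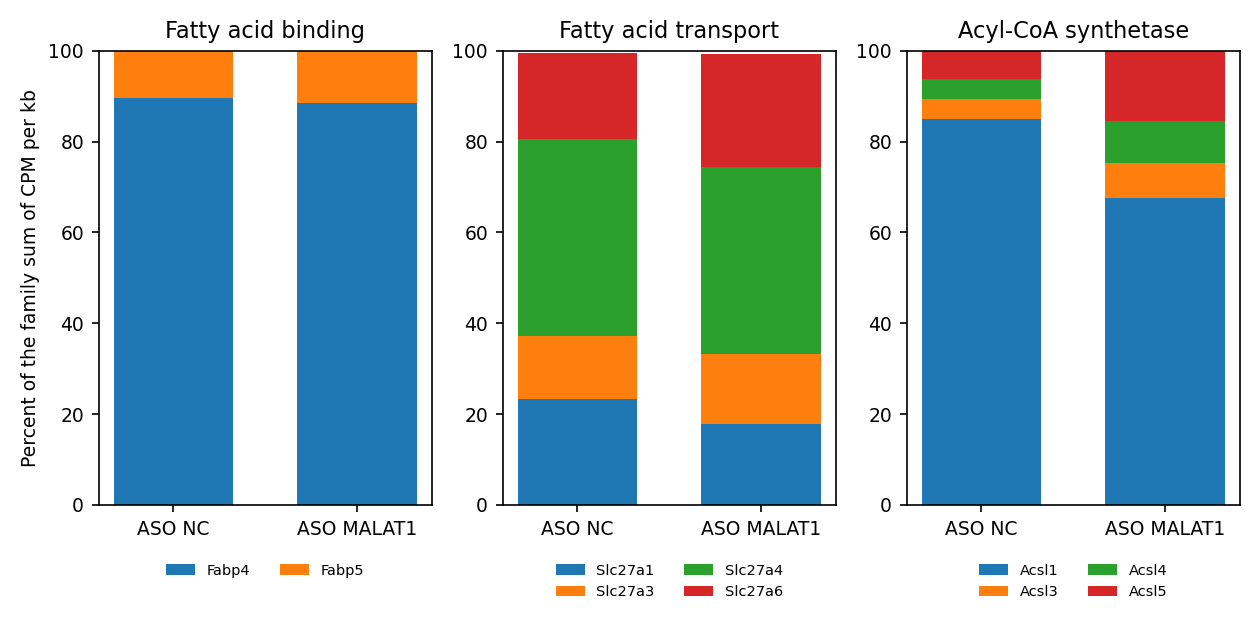
Share of each gene in the summed CPM per kilobase (longest transcript) of its family, as stacked bars for the ASO NC and the ASO MALAT1 library in the FABP, FATP (Slc27a) and ACSL families. Genes under 1% of a family are not drawn. The FABP bars are nearly alike, while Acsl1 takes 84.9% of the ACSL bar in ASO NC and 67.6% in ASO MALAT1.

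The 4 activating enzymes behaved unlike each other. Acsl1 (chromosome 8, 46471037 to 46536051, plus strand) encodes the main long-chain acyl-CoA synthetase of fat, heart and liver. It had 90171 counts in ASO NC and 37346 in ASO MALAT1, or 1563 and 601 CPM. Its log2 ratio was -1.38 with an interval from -1.40 to -1.36. It ranked 51 of all genes by counts in ASO NC and 177 in ASO MALAT1. The genes within 500 kb of Acsl1 did not all stay level. Slc25a4, which encodes the mitochondrial ADP/ATP carrier, had 24223 and 26218 counts. Ankrd37 had 837 and 416, a log2 ratio of -1.11, and Cenpu had 321 and 598.

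Acsl3 (chromosome 1, 78657825 to 78707743, plus strand), an enzyme of the endoplasmic reticulum and of lipid droplets, had 3310 counts in ASO NC and 2982 in ASO MALAT1. Its log2 ratio was -0.26 with an interval from -0.33 to -0.19. Utp14b, which overlaps it on the same strand, had 246 and 272 counts. Acsl4 (chromosome X, 142317993 to 142390535, minus strand), which prefers arachidonic acid and other polyunsaturated acids, had 4372 and 4682 counts. Its ratio was -0.0077 with an interval from -0.07 to 0.05, which spanned 0. The sign of this value changed with the scaling of the libraries.

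Acsl5 (chromosome 19, 55251938 to 55297720, plus strand), an enzyme of mitochondria and endoplasmic reticulum, was the one gene of the 10 above its control level by more than counting error. It had 4877 counts in ASO NC and 6388 in ASO MALAT1, or 84.5 and 103 CPM. Its log2 ratio was 0.28 with an interval from 0.23 to 0.34, short of 2-fold, and 7624 of the 8251 genes with at least 1000 counts had a lower one. Zdhhc6, a palmitoyltransferase gene that overlaps Acsl5 on the opposite strand, had 3851 and 4029 counts. The kit keeps the strand of the RNA, but whether the counting used it is not given in the sources used here.

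Ratios of counts within a library do not depend on scaling, and their intervals come from the counting error of the 4 counts on the log scale. In ASO NC there were 27.2 counts of Acsl1 for each count of Acsl3, 20.6 for each of Acsl4 and 18.5 for each of Acsl5. In ASO MALAT1 these were 12.5, 7.98 and 5.85. The log2 changes were -1.12, -1.37 and -1.66, each with an interval well below 0. The wider intervals from counts divided by 10 also lay below 0, which follows from the first intervals and adds no support. Per kilobase of the longest transcript, Acsl1 made up 84.9% of the ACSL family in ASO NC and 67.6% in ASO MALAT1, while Acsl5 went from 6.15% to 15.5%, Acsl4 from 4.43% to 9.11% and Acsl3 from 4.48% to 7.76%. The family sum was 2.07-fold lower. Acsl6, the brain form, had 8 and 15 counts. The coding sequences of Acsl1 and Acsl5 had 64.8% identical bases and a longest shared run of 18 bases. Acsl3 and Acsl4, the closest pair of the 4, shared 67.7% and a run of 21 bases.

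Some synthetases for shorter acids were also lower. Of 13 listed genes, Acsl6 included, 10 were tested, 3 were lower and 0 higher, and their median log2 ratio was -0.37. Acsm3, a medium-chain synthetase, had 5064 and 1717 counts and a ratio of -1.67. Acsm5, of the same group, had 897 and 471 and a ratio of -1.04, and Acss3, a short-chain synthetase of mitochondria, had 2515 and 1330 and a ratio of -1.03. Acss2, which makes acetyl-CoA in the cytosol, had 1420 and 1057 and a ratio of -0.53, and Acsf2 had 1290 and 886 and a ratio of -0.65.

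Past the activation step, acyl-CoA esters are held by binding proteins or cleaved by thioesterases. Of 15 such genes 13 were tested, 0 were lower and 1 was higher, with a median log2 ratio of -0.08. Dbi, the acyl-CoA binding protein, had 18565 and 12403 counts and a ratio of -0.69. Acot7, a cytosolic thioesterase, had 3448 and 4782 and a ratio of 0.37. Acot1, another cytosolic thioesterase, was the called gene, with 11 and 27 counts and a ratio of 1.15.

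**Figure D3:**
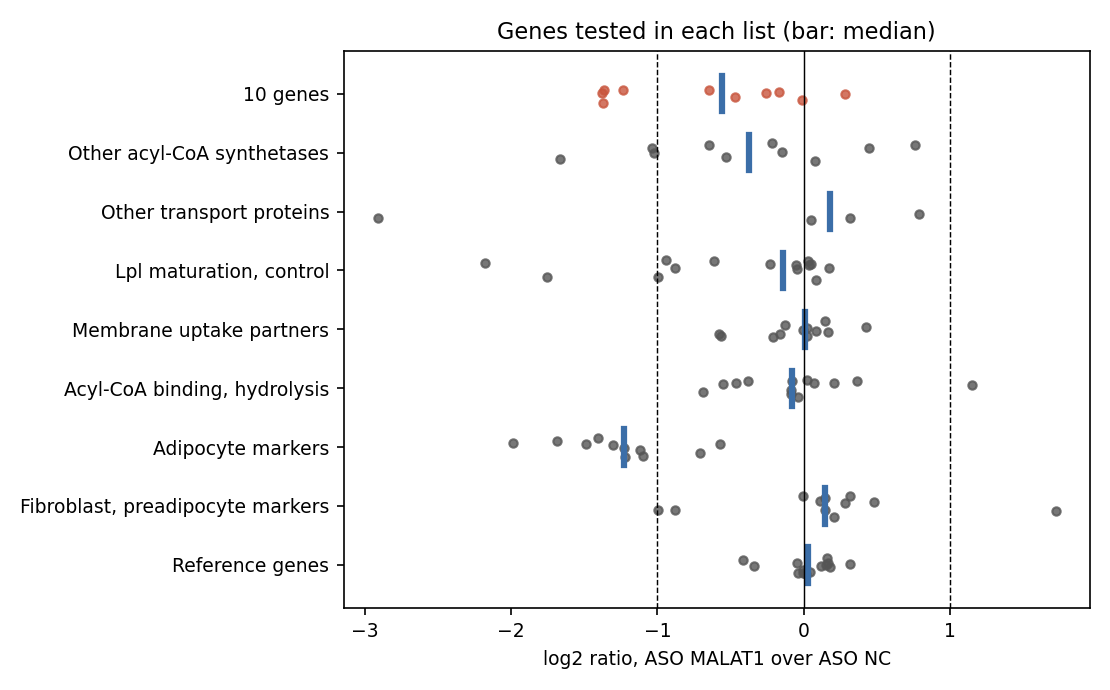
Log2 ratio, ASO MALAT1 over ASO NC, of each tested gene in the 10 genes and in the companion and marker lists, with 1 point per gene and a bar at the median of each list. The adipocyte markers lie together near a median of -1.23, while the uptake partners and the reference genes are centred near 0.

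Promoter sequence was available from RefSeq for 7 of the 10 genes, as 10 windows of 250 bases before to 50 after a start site (GRCm38.p6). There was no entry for Lpl, Fabp4 or Fabp5. Acsl1 and Acsl5 are shown because their levels went opposite ways, and Cd36 because its window alone held a nuclear receptor half-site. Capitals mark the letters of any motif found on either strand among the TATA box (TATAAA), the CCAAT box (CCAAT), the GC box (GGGCGG), the nuclear receptor half-site (AGGTCA), 2 half-sites 1 base apart (DR1, AGGTCANAGGTCA) and a C/EBP site (TTGCNNCAA). The lines below read 5′ to 3′ on the strand of the gene, and they lie at chr8:46470787-46471086 (plus), chr8:46490716-46491015 (plus), chr19:55253119-55253418 (plus) and chr5:17835847-17836146 (minus).
Acsl1 first start: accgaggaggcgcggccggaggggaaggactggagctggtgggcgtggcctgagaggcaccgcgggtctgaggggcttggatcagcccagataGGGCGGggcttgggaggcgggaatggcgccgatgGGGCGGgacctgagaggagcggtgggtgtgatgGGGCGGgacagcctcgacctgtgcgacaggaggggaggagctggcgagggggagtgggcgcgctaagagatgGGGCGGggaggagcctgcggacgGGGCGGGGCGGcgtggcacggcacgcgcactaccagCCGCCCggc
Acsl1 second start: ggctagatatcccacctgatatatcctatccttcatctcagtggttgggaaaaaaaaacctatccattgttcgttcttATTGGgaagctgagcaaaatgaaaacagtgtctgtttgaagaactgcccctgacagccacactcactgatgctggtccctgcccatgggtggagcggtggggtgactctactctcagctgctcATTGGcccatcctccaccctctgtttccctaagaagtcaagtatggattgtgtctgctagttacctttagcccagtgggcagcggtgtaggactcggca
Acsl5: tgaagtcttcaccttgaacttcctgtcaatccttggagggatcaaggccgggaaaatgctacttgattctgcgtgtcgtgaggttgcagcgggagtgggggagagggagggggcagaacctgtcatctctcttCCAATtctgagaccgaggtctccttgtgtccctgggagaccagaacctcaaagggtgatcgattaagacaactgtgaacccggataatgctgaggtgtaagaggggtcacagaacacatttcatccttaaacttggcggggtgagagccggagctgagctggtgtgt
Cd36: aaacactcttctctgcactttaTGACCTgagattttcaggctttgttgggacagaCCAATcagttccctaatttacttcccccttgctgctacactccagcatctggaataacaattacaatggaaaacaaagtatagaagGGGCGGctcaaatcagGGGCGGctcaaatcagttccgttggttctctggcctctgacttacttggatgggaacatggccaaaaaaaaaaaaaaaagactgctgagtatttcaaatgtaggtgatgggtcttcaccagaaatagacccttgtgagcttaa

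The first Acsl1 window held 7 GC boxes in 74% G and C. The second, with 50% G and C, held 2 CCAAT boxes, the Acsl5 window held 1, and the Cd36 window held 1 CCAAT box, 2 GC boxes and the half-site. Over the 10 windows, 7 had a GC box and 6 a CCAAT box, against 35.7% and 37.4% of all 32851 promoter windows of this length. Slc27a1 gave 3 of the 10 windows and Acsl1 gave 2, so these are not counts of separate genes. The half-site was in 1 window, against 16.3% of all. The TATA box, the C/EBP site and DR1 were in 0 of the 10, against 13.6%, 2.08% and 0.0396% of all. These are matches of letters only and show no binding, and their absence from a window says nothing about the factor.

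The 3 genes with the lowest ratios kept their proportions. This was noticed after the values were seen, so it is a description. In ASO NC there were 2.95 counts of Fabp4 for each count of Lpl, and in ASO MALAT1 2.96. For Fabp4 to Acsl1 the ratio was 1.68 and 1.69, and for Lpl to Acsl1 0.571 and 0.573. The log2 changes were 0.0048, 0.010 and 0.0053, with intervals that spanned 0. Adipoq, the hormone adiponectin made by adipocytes, was near them in ratio. The log2 change of Lpl to Adipoq was -0.07, that of Fabp4 to Adipoq -0.07, that of Acsl1 to Adipoq -0.08 and that of Fabp5 to Adipoq 0.07. These changes were small, but their intervals did not span 0. The Fabp5 value leaves out its pseudogene copies. With them Fabp5 had a log2 ratio of -1.28, beside -1.30 for Adipoq, and no interval was computed for that comparison. By rank, 15 of the 8251 genes with at least 1000 counts had a lower ratio than Acsl1, 16 lower than Lpl, 18 lower than Fabp4 and 28 lower than Fabp5.

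**Figure D4:**
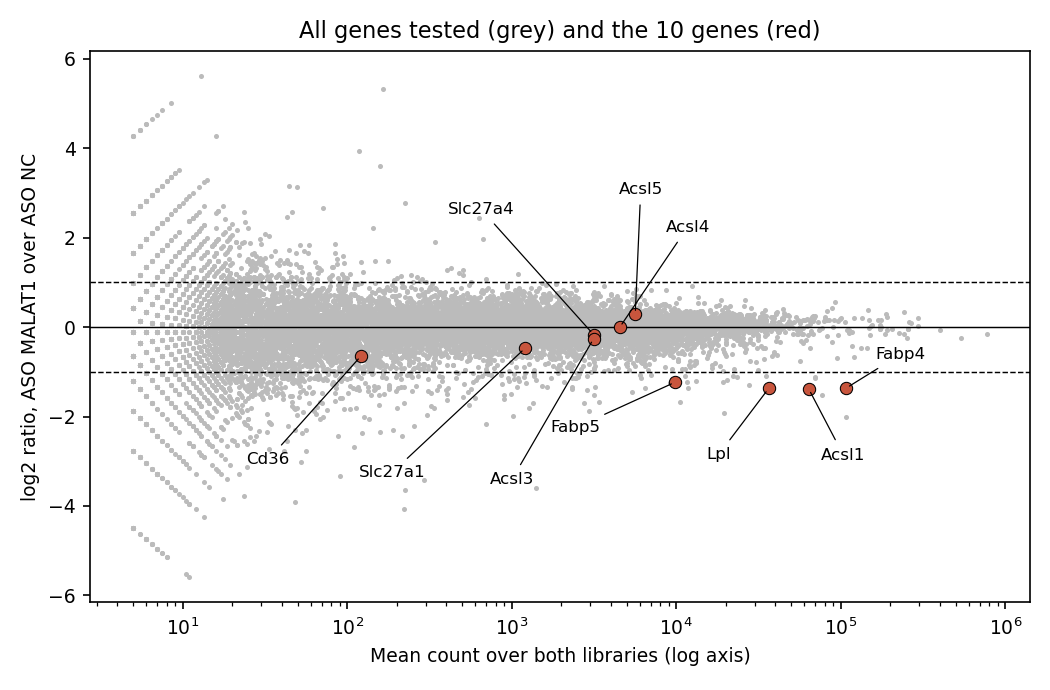
Log2 ratio, ASO MALAT1 over ASO NC, against the mean count of both libraries (log axis) for the 17356 genes tested in grey, with the 10 genes in red and dashed lines at 2-fold. Fabp4, Acsl1, Lpl and Fabp5 lie below the lower line where few other genes of like counts do, and the other 6 lie inside the grey band.

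Markers of the differentiated fat cell moved with these 4 genes. Of 12 adipocyte markers 11 were tested, all 11 had ratios below 0, 9 were called lower and 0 higher, and their median log2 ratio was -1.23. Their summed level was 3349 CPM in ASO NC and 1474 CPM in ASO MALAT1. Adipoq had 38769 and 16923 counts and a ratio of -1.30, and Plin1, the coat protein of lipid droplets, had 15926 and 7310 and a ratio of -1.23. Pparg, the receptor that troglitazone activates, was less low, with 11816 and 8552 counts and a ratio of -0.57. Cebpa, a partner factor in fat cells, had 4071 and 1652 and a ratio of -1.41. Of 13 markers of fibroblasts and preadipocytes 11 were tested, 0 were lower and 1 was higher, and their median was 0.15. The called gene was Cd34, a surface protein of progenitor cells, with 19 and 69 counts. The list did not move 1 way, as Lum and Dcn, proteoglycans of the matrix, had ratios of -0.99 and -0.88 with intervals below 0. The summed level of the list, most of it collagens, was 11791 CPM in ASO NC and 13018 CPM in ASO MALAT1. How far this enters the ratios of the 10 genes was not tested, and in bulk RNA fewer cells of a type and less RNA per cell cannot be told apart.

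Other cell types left little trace. Of 8 macrophage markers Ptprc, Adgre1, Itgam and Fcgr1 had 0 counts in both libraries, and the sum of all 8 was 9.43 CPM in ASO NC and 11.2 CPM in ASO MALAT1, most of it Cd14 and Cd68. Of the 4 tested, 2 were called higher at low counts, Csf1r with 3 and 13 and Lyz2 with 7 and 25. Of 8 endothelial markers Tie1 and Cldn5 were at 0 in both libraries, Cdh5 and Kdr had 0 and 1 counts each, and the sum was 1.40 and 1.95 CPM. Of the 4 tested, 2 were called higher, Vwf with 12 and 30 counts and Emcn with 20 and 45. Calls at such low counts, here and in the other lists, were not set against genes of like depth. Of 8 muscle markers 5 were at 0 in both libraries and the sum was 0.503 and 1.03 CPM. Among the fibroblast, preadipocyte and adipocyte markers, Dlk1 had 0 counts in both libraries, Dpp4 had 0 and 1, and Lep, the hormone leptin, had 1 and 0. All 14 reference genes were within 2-fold, with a median of 0.03.

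**Figure D5:**
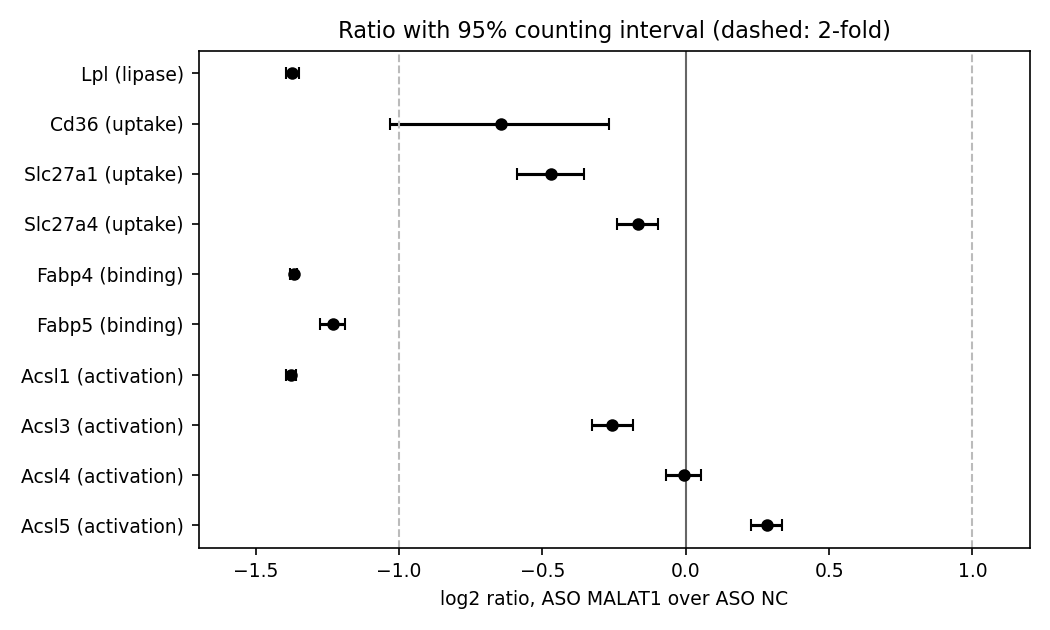
Log2 ratio, ASO MALAT1 over ASO NC, of each of the 10 genes with its 95% interval of counting error as a horizontal bar and dashed lines at 2-fold. Lpl, Fabp4, Fabp5 and Acsl1 lie wholly past the lower line, the interval of Cd36 is the widest and crosses it, and only the interval of Acsl4 spans 0.

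The 10 genes together took 0.557% of all counts in ASO NC and 0.238% in ASO MALAT1, or 324035 and 146449 counts. Fabp4, Acsl1 and Lpl made up 90.5% of that sum in ASO NC and 83.3% in ASO MALAT1. Levels of different genes can be compared only per length. Per kilobase of the longest transcript the levels in ASO NC were 621 CPM for Fabp4, 275 for Acsl1, 217 for Lpl and 72.3 for Fabp5. Those of Acsl5, Acsl3, Acsl4 and Slc27a4 lay between 19.9 and 13.7, Slc27a1 stood at 7.34 and Cd36 at 0.734. In ASO MALAT1 the first 5 genes kept this order, at 241, 106, 83.7, 30.8 and 24.2. By coding length the first 4 had the same order in ASO NC, at 6635, 745, 627 and 578 CPM per kilobase. In ASO MALAT1, by this length, Fabp5 with 246 stood level with Lpl at 242. How far Fabp4 and Fabp5 stood from Acsl1 and Lpl thus depended on the length. Their longest transcripts have 4231 and 3238 bases, and their coding sequences 396 and 405. For Fabp4, Fabp5, Slc27a1 and Acsl1 the longest annotated transcript is not the one that gave the coding sequence. Which transcripts the cells made was not tested. With its pseudogene copies Fabp5 reached 990.4 and 408 by coding length, above Acsl1 and Lpl in both libraries. Acsl3, Acsl4 and Slc27a4 changed places with the length used.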

How the data were processed

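The data are 1 table of counts per gene symbol for 2 rRNA-depleted libraries. The authors deposited raw read counts that are not normalized. The submitters' processing notes name HISAT2 and GRCm38. The counting tool, its annotation and its use of strand are not given in the sources used here.

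Counts were scaled by TMM (edgeR 4.0.16). Log2 ratios used a prior count of 0.5 and exact binomial intervals at 95%, which cover counting error only, and ratios between genes a normal approximation on the log scale. A call needed a log2 ratio of -1 or lower, or of 1 or higher, and at least 10 counts summed. The interval procedure was tested on simulated counts that held counting error only, so that test says nothing about variation between libraries. All 10 genes are named, as are companion genes past 2-fold and up to 4 more per list, those with the most counts. Further genes were chosen after their values were seen. They were Lmf1, Gpihbp1, Pcsk6, Apoc1, Scarb1, Lyn, Acsl6, the scarce FABP genes, single marker genes and Angptl4 with its neighbours. The Fabp5 copies, the neighbours of Lpl, Cd36 and Acsl1, Adipoq and the ratios to it were also chosen so. The 10 genes and the lists were chosen with earlier results of these data known.

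Positions, lengths and coding sequences came from GENCODE M21, promoters from RefSeq (GRCm38.p6), and copies were searched with BLAST+ 2.17.0. Coding bases were compared in place of proteins, for which no table was used here. Alternatives were other scalings (DESeq2 1.42.0 size factors, upper quartile, library totals, reference genes) and a prior count of 2. Count filters, a 1.5-fold call, preset variation, other gene lengths and counts divided by 10 were also tried.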

Additional observations from a re-analysis of the deposited data

How the results depend on the processing

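With 1 library per group no library could be left out and no spread between replicates is known, so counting intervals understate the error. No paired analysis was possible because each group has 1 library and no test across replicates could be made. Over 50 values of the 10 genes under other scalings and another prior count, the largest move was 0.0724 on the log2 scale. Of these values 2 changed sign, both of Acsl4. A reversal was counted only where a called gene changed sign, and there were 0. Each scaling shifts all genes alike, and moves this small could not reverse a 2-fold call. The number of the 10 genes called lower was 4 under each scaling, prior count and count filter tried. That number could not change, so it is no check. Even the scarcest gene, Cd36, had 144 and 99 counts, above every filter. The called genes lay further past 2-fold than any of these moves. At 1.5-fold 5 of the 10 genes were lower, against 2066 of the 17356 genes tested. The log2 ratio of Malat1 was -1.99 by library totals and -2.09 by the reference gene sum.

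The number of genes called over the whole table moved with the rule: from 1045 lower and 665 higher to 3139 and 2774 without a count filter, 422 and 180 when both libraries had to reach 10 counts, and 2066 and 1437 at 1.5-fold. The companion lists, with 8 lower and 1 higher, had 5 lower when both libraries had to reach 10 counts, 14 lower and 6 higher at 1.5-fold, and 5 higher without a filter. With a preset biological coefficient of variation, edgeR's exact test called 466 lower and 201 higher at 0.1, 95 and 22 at 0.2, and 0 and 1 at 0.4. Of the 10 genes it called 4 lower at 0.1, 0 at 0.2 and 0 at 0.4.

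Shares within a family depended on gene length, in ASO NC and ASO MALAT1 in turn. Acsl1 took 77.0% and 55.4% with merged exons and 87.8% and 72.7% by coding length. Slc27a4 took 46.7% and 43.0% with merged exons and 52.8% and 51.0% by coding length. Fabp4 took 92.0% and 91.2% by coding length, and 83.3% and 82.4% with the copies of Fabp5 added. Coding lengths from GENCODE and the Fabp5 copies (log2 ratio -1.28) were added after seeing the data. Lengths from RefSeq proteins and a comparison of proteins were not run.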
